A study of Mus musculus with 10 samples.

Results

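Laminin-332 and the hemidesmosome are described here through 9 genes (Lama3, Lamb3, Itga6, Itgb4, Itga3, Col17a1, Dst, Plec and Cd151). They were taken by gene symbol from a table of 24421 genes, and all 9 were found and passed the filter on low counts. The series holds 5 libraries of normal lung from untreated wild-type NIH Swiss mice and 5 of lung squamous cell carcinoma (SCC) from wild-type NIH Swiss mice given NTCU, a nitrosourea carcinogen. Regions were cut by laser from formalin-fixed, paraffin-embedded sections, and total RNA was sequenced. Age, dose and time are not given in the labels, nor is the animal behind each library. The p-values therefore weigh a group difference only against the variation between these libraries, which may be technical, and are too small if regions share an animal.

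Basal cells of squamous and airway epithelium are held to the basement membrane by hemidesmosomes. Laminin-332, a trimer that holds the Lama3 and Lamb3 chains, is the ligand outside the cell, and the integrin of the Itga6 and Itgb4 chains is its main receptor. Collagen XVII and Cd151 sit beside that integrin in the membrane. Plectin and dystonin, which are plakins, tie it to keratin filaments inside. In lung, hemidesmosomes are best known from the basal cells of the airways. The same laminin is also bound by the integrin of Itga3 and Itgb1.

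The transmembrane genes Itgb4 and Col17a1 were higher in SCC, and the other 7 members did not pass the test. Itgb4 rose by 3.82 on the log2 scale (SE 0.56) in the quasi-likelihood fit of edgeR, with a Benjamini-Hochberg adjusted p = 2.27e-05. Col17a1 rose by 7.03 (SE 0.90, edgeR adjusted p = 7.34e-06). Thus 2 of 9 members were called higher and 0 lower, where 21.1% of the 13203 genes tested were called, 12.5% higher and 8.68% lower, so the count itself says nothing particular about the members. At an unadjusted edgeR p under 0.05, 0 members were lower. The DESeq2 Wald test also called 0 lower, of the 7 members to which it gave an adjusted p, and 1389 of 21503 genes lower. It gave no adjusted p for Lama3 and Lamb3, the laminin chains, and so does not speak to them. Limma-voom with sample quality weights called 4 of 9 members lower (Lama3, Itga3, Dst and Cd151), and 2766 of 13203 genes lower. The median log2 fold change was 0.21 over the members and 0.07 over all genes tested.

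**Figure D1:**
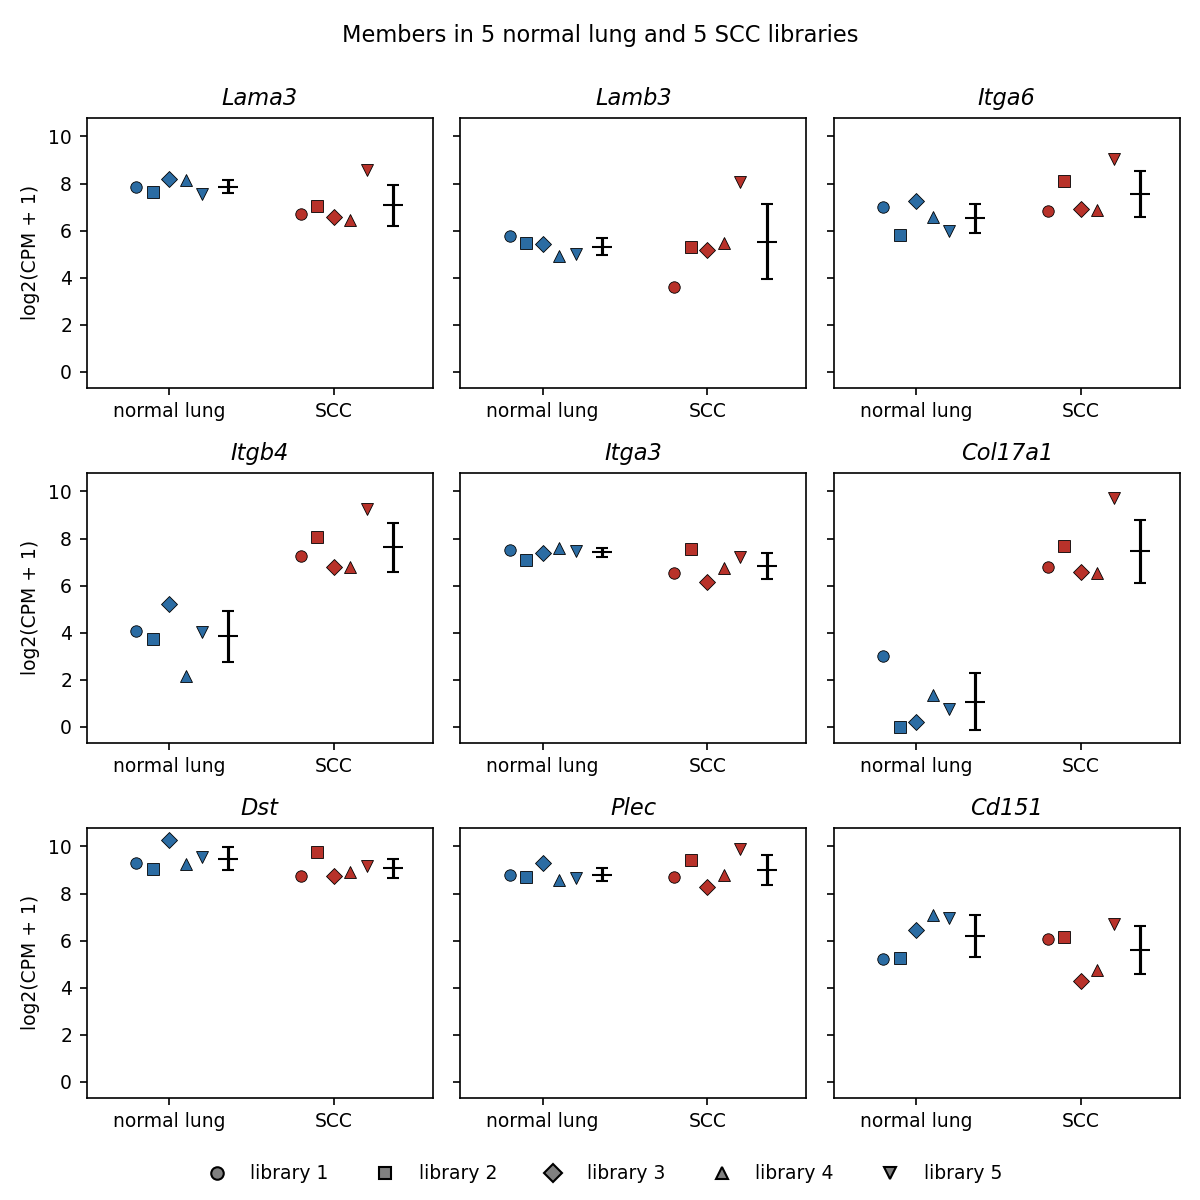
Log2(CPM + 1) of each member per library, with a marker shape per library, normal lung in blue and SCC in red, and a black bar at the mean with its SD (n = 5). For Itgb4 and Col17a1 the lowest SCC library lies above the highest normal library, and the groups overlap for the other 7 members.

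Total counts per library ran from 1004105 to 6817106. Marker lists followed the labels. The summed level of 8 basal and squamous cell genes (Krt5, Krt14 and Trp63 among them) was 23.9 to 67.7 CPM, the counts of a library scaled to a common total, in normal lung and 901 to 5333 in SCC, and 3 of the 8 had no count in normal lung. The sums of 6 alveolar type 1 genes (2294 to 3412 against 268 to 617), 6 type 2 genes (5975 to 8728 against 366 to 604) and 6 endothelial genes (1748 to 2783 against 105 to 239) were lower in SCC, with no gene of these lists at 0 throughout a group. Fibroblast genes overlapped (798 to 1332 against 251 to 1091). Less RNA per cell and fewer cells of a type cannot be told apart in such regions, and the part of these shifts in the results on the members was not tested. Counts on olfactory and vomeronasal receptor genes, which are not tied to a lung cell type, were 3.27 to 3.49 CPM per kb in SCC 1, SCC 3 and SCC 4. They were 0.593 in SCC 2, 0.412 in SCC 5 and at most 0.209 in normal lung. Of the SCC libraries, SCC 5 held the highest level of 7 members (not of Itga3 and Dst) and of Krt5 (1486 CPM, against 201 to 598 in the other SCC libraries). It is also the only library whose code starts with E, the others being D in SCC and A in normal lung, and the labels do not say what the letter marks. Results on the members are therefore given with and without these libraries. A fit with the receptor signal as a covariate was also run, although each SCC library has a higher signal than each normal library, so that the signal and the tissue are hard to separate in it.

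Of the ligand, Lama3, the alpha chain (chromosome 18, 12333819 to 12583013, GRCm38), was at 228, 195, 291, 284 and 188 CPM in normal 1 to normal 5. In SCC 1 to SCC 5 it was at 104, 130, 93.6, 86.6 and 384 CPM. SCC 1 to SCC 4 all lay below the lowest normal library and SCC 5 above the highest. With all libraries the log2 fold change was -0.65 (SE 0.42, edgeR adjusted p = 0.309). Without SCC 5 it was -1.38 (edgeR adjusted p = 0.00389), and limma-voom with sample quality weights also called it lower (-1.38, adjusted p = 0.000172). When SCC 2 and SCC 5 stood for the group it was 0.027 (edgeR adjusted p = 0.979). A background taken as the receptor signal of a library times the exon length of a gene would make up 33.8%, 37.8% and 43.3% of the Lama3 counts of SCC 1, SCC 3 and SCC 4.

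Lamb3, the beta chain found in laminin-332 (chromosome 1, 193207699 to 193343878), was at 53.3, 43.1, 42.5, 28.9 and 30.9 CPM in normal lung. The SCC libraries had 11.3, 38.2, 35.2, 43.8 and 266 CPM. SCC 1 was thus below every normal library, SCC 2 to SCC 4 were inside the normal range, and SCC 5 was far above it. SCC 5 stood at 8.28 times the mean of the other SCC libraries, the largest such ratio of the 9 members. The log2 fold change was 0.96 (SE 0.57, edgeR adjusted p = 0.251), and it was -0.47 without SCC 5 (adjusted p = 0.476). With SCC 2 and SCC 5 alone it was 1.88 (adjusted p = 0.0206). With the receptor signal as covariate it was 3.16 and was called higher (edgeR adjusted p = 0.0128), while limma-voom gave -0.24 (adjusted p = 0.631). In SCC 1 the level rests on 12 counts, fewer than the background estimate for that library.

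Among the receptors, Itgb4, the beta chain that forms the hemidesmosomal integrin (chromosome 11, 115974709 to 116008412), was at 15.7, 12.3, 36.5, 3.47 and 15.1 CPM in normal lung. In SCC it was at 150, 266, 108, 109 and 608 CPM. The lowest SCC library lay above the highest normal library, which 8.81% of all genes tested did in this direction. The mean was 14.9-fold higher in SCC. The estimate was 3.06 without SCC 5 (edgeR adjusted p = 3.43e-05) and 4.60 with SCC 2 and SCC 5 alone (adjusted p = 4.09e-05). With the background subtracted it was 4.08 (edgeR adjusted p = 0.00014).

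Itga6, its alpha partner (chromosome 2, 71745616 to 71858416), was already at 128, 54.7, 151, 94.5 and 63.1 CPM in normal lung. SCC libraries had 112, 279, 122, 118 and 526 CPM, so that SCC 2 and SCC 5 were above every normal library and the other 3 within the normal range. The log2 fold change was 1.17 (SE 0.45) and just missed the test (edgeR adjusted p = 0.0645). It passed with DESeq2 size factors (1.27, edgeR adjusted p = 0.0451), with the DESeq2 Wald test (1.24, adjusted p = 0.0316), after background subtraction (1.42, adjusted p = 0.0267) and without SCC 1 (1.32, adjusted p = 0.0471). When SCC 2 and SCC 5 stood for the group it also passed (1.94, edgeR adjusted p = 0.00146), and the estimate was 0.51 without SCC 5 (adjusted p = 0.344). The largest estimate came with the receptor signal as covariate (3.56, edgeR adjusted p = 9.4e-05) and the smallest from limma-voom (0.29, adjusted p = 0.446).

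Itga3, the alpha chain of the other laminin-332 receptor (chromosome 11, 95044474 to 95076801), was steady in normal lung at 180, 136, 166, 191 and 176 CPM. In SCC it was at 92.4, 188, 71.0, 106 and 149 CPM, with SCC 1, SCC 3 and SCC 4 below each normal library. The log2 fold change was -0.60 (SE 0.35, edgeR adjusted p = 0.247). It was -0.76 without SCC 5 (edgeR adjusted p = 0.116). With limma-voom it was -1.03 (adjusted p = 0.00253) and when SCC 2 and SCC 5 stood for the group -0.15 (edgeR adjusted p = 0.858).

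Itgb1, the beta chain that pairs with Itga3 and many other alpha chains, had 291 to 712 CPM in normal lung. SCC 1 to SCC 4 had 61.3, 375, 101 and 154 CPM and SCC 5 had 876, with a log2 fold change of -0.77 (SE 0.54, edgeR adjusted p = 0.342). Without SCC 5 it was called lower (-1.75, edgeR adjusted p = 0.00583), as it was by limma-voom (-2.06, adjusted p = 9.89e-06), and with SCC 2 and SCC 5 alone it was 0.20 (adjusted p = 0.822).

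Col17a1, which encodes collagen XVII, a membrane-spanning collagen that joins the integrin to the plakins (chromosome 19, 47646344 to 47692094), had 20, 0, 1, 4 and 1 counts in normal 1 to normal 5. These are 7.16, 0, 0.147, 1.54 and 0.686 CPM, and the 0 in normal 2 allows up to 2.05 CPM (3 counts, counting error only). In SCC 1 to SCC 5 it was at 111, 203, 94.1, 91.6 and 841 CPM. The groups stood far apart, and the mean CPM was 141-fold higher in SCC. The log2 fold change was 5.80 without SCC 5 (edgeR adjusted p = 1.76e-06) and 8.65 without normal 1 (adjusted p = 7.23e-07), which holds most of the counts in normal lung. It was 8.0 when SCC 2 and SCC 5 stood for the group (edgeR adjusted p = 0.00116) and 7.42 with the background subtracted (adjusted p = 0.000101). Background would make up 16.4%, 19.5% and 21.3% of its counts in SCC 1, SCC 3 and SCC 4.

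The RefSeq promoter table (GRCm38.p6) held 5 members, Itgb4 not among them. Shown are 3 windows, each the first listed for its gene. They were chosen because their genes behaved differently, Col17a1 being far higher in SCC and Itga3 and Lamb3 not called. Each runs 5′ to 3′ on the gene's strand from 250 bases before the start and stops at the first annotated exon base. Capitals mark TATAAA or GGGCGG.
Col17a1 (chr19:47692095-47692292, minus strand): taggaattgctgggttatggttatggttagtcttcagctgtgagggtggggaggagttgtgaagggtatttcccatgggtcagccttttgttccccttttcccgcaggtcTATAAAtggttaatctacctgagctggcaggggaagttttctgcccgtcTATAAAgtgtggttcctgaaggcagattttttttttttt
Itga3 (chr11:95076802-95076964, minus strand): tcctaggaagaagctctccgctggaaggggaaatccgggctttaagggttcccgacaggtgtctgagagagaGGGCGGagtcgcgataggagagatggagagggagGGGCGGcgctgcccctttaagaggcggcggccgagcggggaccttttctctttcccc
Lamb3 (chr1:193301744-193301992, plus strand): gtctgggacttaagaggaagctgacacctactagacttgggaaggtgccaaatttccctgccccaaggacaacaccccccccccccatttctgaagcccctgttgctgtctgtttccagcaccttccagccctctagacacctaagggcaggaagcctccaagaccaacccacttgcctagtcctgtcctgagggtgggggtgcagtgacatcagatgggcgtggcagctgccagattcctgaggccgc

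Over the 250 bases before the start, on both strands, the Col17a1 window held TATAAA at 2 places, a motif found in 12.4% of 32851 such windows, and no GGGCGG, which 32.7% hold. The Itga3 window held GGGCGG at 3 places, 2 of them in the stretch shown, and no TATAAA, and the Lamb3 window held neither. The AP-1 motif TGANTCA, present in 6.75% of windows, and the p63 half-site, present in 7.13%, had no match in these 3. Among windows not shown, the first of Dst and of Cd151, neither gene called, held GGGCGG at 4 and 2 places and no TATAAA. The Cd151 window also held the p63 half-site at 1 place. Col17a1 is the only called member with a window, so no motif is tied to the calls. The Col17a1 window was 46.0% G or C and the Itga3 window 67.6%. These are matches of letters, and no binding was measured.

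Of the plakins, Dst, or dystonin, whose epithelial form is a hemidesmosome plaque protein (chromosome 1, 33908225 to 34308661), was at 620, 532, 1245, 602 and 743 CPM in normal lung. It was at 429, 862, 433, 475 and 574 CPM in SCC, with SCC 1, SCC 3 and SCC 4 below each normal library (log2 fold change -0.54, SE 0.39, edgeR adjusted p = 0.368). Limma-voom called it lower (-0.67, adjusted p = 0.0281). Dst was at -0.62 without SCC 5 and -0.19 when SCC 2 and SCC 5 stood for the group (edgeR adjusted p = 0.266 and 0.809). The annotation gives Dst 8 transcripts, and counts per gene cannot tell the epithelial form from the others. Plec, or plectin (chromosome 15, 76170974 to 76232574), was at 438, 420, 629, 376 and 403 CPM in normal lung. In SCC it was at 416, 686, 309, 443 and 945 CPM, on both sides of the normal range (log2 fold change 0.21, SE 0.40, edgeR adjusted p = 0.761). The estimate for Plec was -0.15 without SCC 5 and 0.74 when SCC 2 and SCC 5 stood for the group (edgeR adjusted p = 0.806 and 0.143).

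Cd151, a tetraspanin that binds the laminin-binding integrins (chromosome 7, 141467392 to 141471473), varied widely within both groups. Normal libraries had 36.5, 36.9, 85.8, 134 and 124 CPM and SCC libraries 66.9, 71.0, 18.7, 25.9 and 102 CPM. The groups overlapped (log2 fold change -0.66, SE 0.47, edgeR adjusted p = 0.359), and limma-voom called it lower (-1.39, adjusted p = 0.0111). It was at -1.07 without SCC 5 and -0.072 when SCC 2 and SCC 5 stood for the group (edgeR adjusted p = 0.0993 and 0.957).

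**Figure D2:**
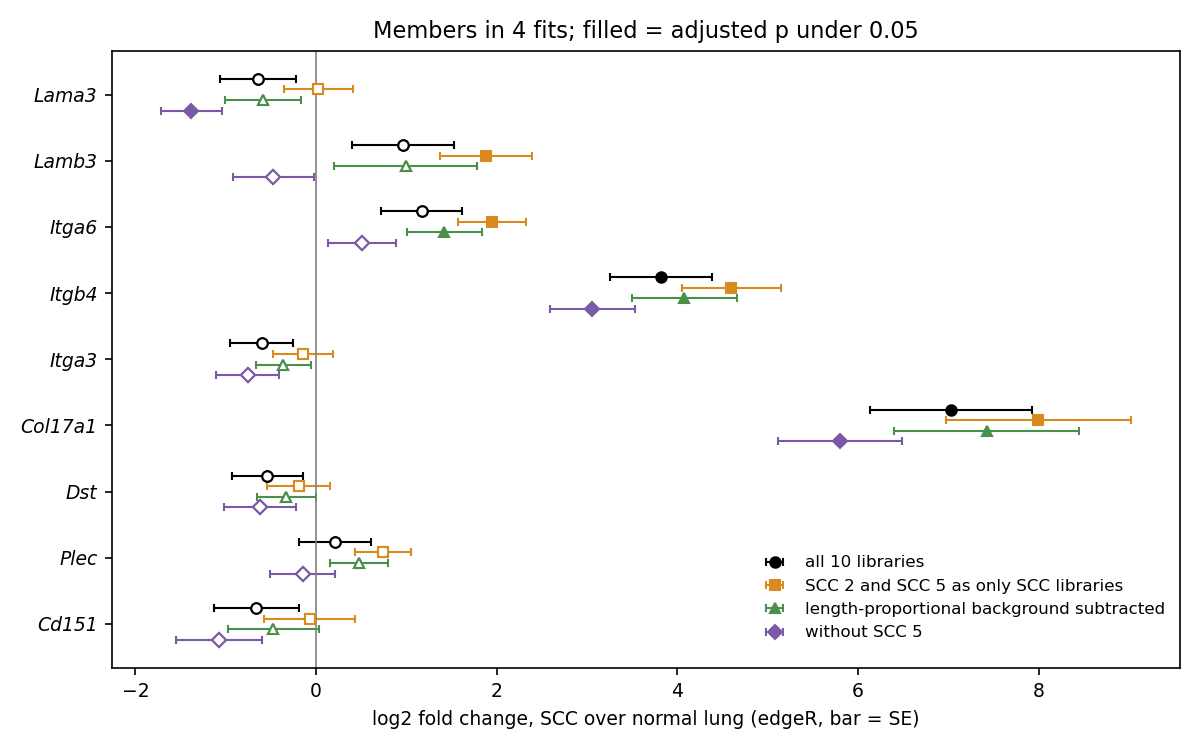
Log2 fold change of each member, SCC over normal lung, in 4 edgeR fits, with bars for the SE and filled symbols for an adjusted p under 0.05. Itgb4 and Col17a1 are filled and far to the right in each fit, while Lama3 is called lower only without SCC 5 (-1.38) and Lamb3 higher only with SCC 2 and SCC 5 alone (1.88).

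Per kb of exon, which allows a rough comparison of levels between genes, the order of the members differed between the groups. The length covers all annotated exons of a gene, so a gene present mainly as a shorter form would be placed too low. In normal lung Cd151 was highest, at 43.0 ± 23.9 CPM per kb (SD, n = 5). Itga3 (32.3 ± 3.96), Plec (25.9 ± 5.74), Dst (23.3 ± 8.96), Itga6 (22.5 ± 9.42) and Lama3 (22.1 ± 4.51 CPM per kb) followed. Lamb3 (7.76 ± 1.95), Itgb4 (2.60 ± 1.9) and Col17a1 (0.341 ± 0.536 CPM per kb) were lowest. Neighbours in this order differed by more than the sum of their SDs only between Lama3 and Lamb3 and between Lamb3 and Itgb4. In SCC the genes at the top were Itga6 (53.0 ± 41.0), Col17a1 (48.0 ± 57.9) and Itgb4 (38.9 ± 33.1 CPM per kb), with Plec at 32 ± 14.6 and Cd151 at 29.4 ± 17.8. Itga3 (23.0 ± 8.91), Dst (17.3 ± 5.66), Lamb3 (15.4 ± 20.6) and Lama3 (14.8 ± 11.8 CPM per kb) were lowest. The place of Col17a1 rests on SCC 5, where it was at 151 CPM per kb. In SCC 1 to SCC 4 it was at 19.9, 36.3, 16.8 and 16.4, below Itga6, Itgb4 and Plec in each library. No neighbours in the SCC order of means differed by more than the sum of their SDs. In both groups that rule uses the spread across libraries, so it can miss a difference that holds within each library. By mean CPM per kb, Col17a1 stood above 2.27% of the tested genes in normal lung and above 94.5% in SCC, and Itgb4 above 21.9% and 93.2%. Tested genes are those that passed the filter on low counts, which Col17a1 passed only through its SCC libraries. A low place in normal lung was thus set in advance for Col17a1, and its shift in place adds nothing to its call.

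Ratios of 2 genes within a library hardly depend on how libraries are scaled, and 7 were compared by a two-sided exact permutation test that takes every way to relabel the libraries and cannot give a p below 0.00794. The log2 ratio of CPM of Itga6 to Itgb4 was 2.98, 2.11, 2.03, 4.58 and 2.03 in normal 1 to normal 5. In SCC 1 to SCC 5 it was -0.42, 0.07, 0.17, 0.11 and -0.21, below every normal library. The mean went from 2.75 ± 1.10 to -0.06 ± 0.25 (SD, n = 5 each), a difference of -2.80 (exact permutation p = 0.00794, adjusted over the 7 ratios p = 0.0139). Per kb of exon the mean log2 ratio was 3.29 in normal lung and 0.49 in SCC. The SCC ratios lay close together although the levels of both genes differed by several fold between SCC libraries.

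Itgb4 against Itgb1 rose from -5.18 ± 1.12 to -0.03 ± 0.78 (SD, n = 5 each), a difference of 5.15 (exact permutation p = 0.00794, adjusted p = 0.0139). Itga6 against Itga3 rose from -0.88 ± 0.56 to 0.72 ± 0.66 (SD, n = 5 each), a difference of 1.6 with the same exact permutation p values. For both ratios the groups did not overlap, with SCC above. Of single genes 14.6% had no overlap, 8.81% with SCC above and 5.77% with SCC below, and the share among ratios was not computed. Itgb4 alone already separated the groups, so ratios that hold it are not independent of its own call. Col17a1 against Itgb4 rose by 3.10 (exact permutation p = 0.00794, adjusted p = 0.0139), from values between -5.84 and -0.96 in normal lung to between -0.43 and 0.47 in SCC. The size of this rise depends on the CPM added to each gene before the ratio, since Col17a1 is near 0 in normal lung, and it was 3.98 with 0.1 CPM and 2.09 with 2 CPM in place of 0.5. Its call was lost when any one SCC library was left out (adjusted p = 0.0556 to 0.0667).

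Dst against Plec fell by 0.63, from 0.68 ± 0.27 to 0.05 ± 0.46 (SD, n = 5 each, exact permutation p = 0.0159, adjusted p = 0.0222). The groups overlapped, and the call did not hold when SCC 2, SCC 4, normal 3, normal 4 or normal 5 was removed (exact permutation, adjusted p = 0.0556 to 0.0667). Lama3 against Lamb3 (-1.02) and Lama3 against Lama5, the alpha chain of other epithelial laminins (-0.99), did not pass (exact permutation p = 0.0794 for each, adjusted p = 0.0794). After background subtraction the first was -0.13 (exact permutation, adjusted p = 0.968). Lama3 against Lamb3 passed without SCC 1 (-1.41, exact permutation, adjusted p = 0.0139), and Lama3 against Lama5 without SCC 5 (-1.32, adjusted p = 0.0278).

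**Figure D3:**
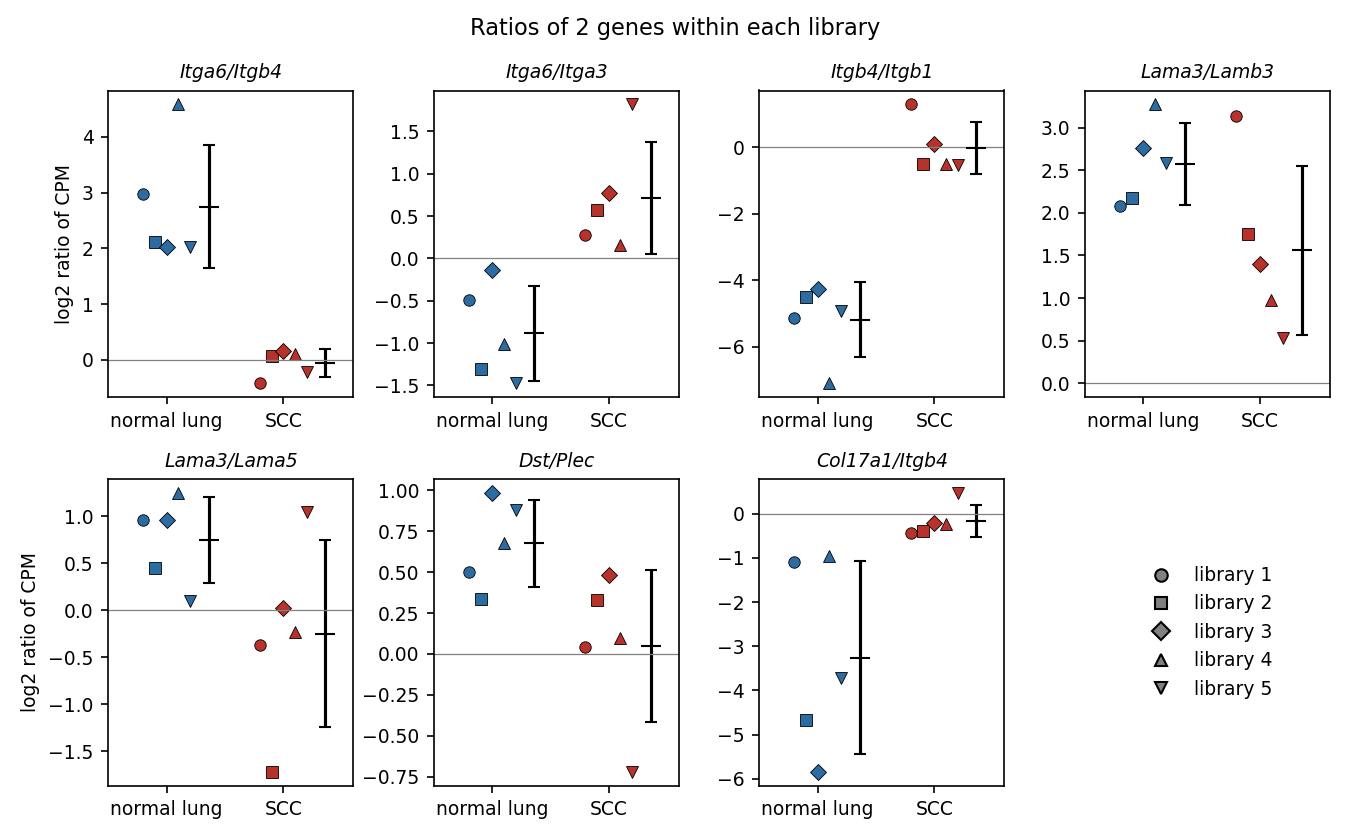
Log2 ratio of the CPM of 2 genes within each library, with a marker shape per library and a black bar at the mean with its SD (n = 5). Itga6/Itgb4 lies between -0.42 and 0.17 in SCC and at 2.03 or more in normal lung, and the groups do not overlap for Itga6/Itga3, Itgb4/Itgb1 and Col17a1/Itgb4 either.

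Genes that surround the members were read from 8 lists with 77 genes, of which 75 were tested. In SCC 12 were higher and 22 lower, and the median log2 fold change was -0.50, where 12.5% and 8.68% of all genes tested were called higher and lower. With the receptor signal as covariate 9 were higher and 3 lower, and with SCC 2 and SCC 5 alone 9 were lower. Both fits called fewer of all genes than the main fit. The covariate fit called 469 higher and 376 lower of 13203 genes, and SCC 2 and SCC 5 alone 592 and 738 of 14305. Smaller counts per list in these 2 fits are to be read beside those values. Of 9 genes in the list of other laminin chains 5 were lower and 1 higher. The list includes Ntn4, a netrin and not a laminin chain, which was among the 5 lower. With the covariate 0 of the list were lower and 0 higher, and with SCC 2 and SCC 5 alone 1 and 1. Lama4, an alpha chain of vessel walls, fell by 1.9 (SE 0.38, edgeR adjusted p = 0.000671), and Lamc1, the gamma chain of most laminins, fell by 1.37 (SE 0.36, adjusted p = 0.00786). Lama1 rose by 3.93 (SE 0.80, edgeR adjusted p = 0.000799) from at most 8.89 CPM in normal lung to between 17.6 and 52.3 in SCC. The background estimate was 38.7% of its SCC counts, and its call was lost after subtraction (3.65, adjusted p = 0.0679). Lamc1 was not called when SCC 2 and SCC 5 stood for the group (-0.90, adjusted p = 0.117). Lama5 was at 0.29 (SE 0.40, edgeR adjusted p = 0.672). Endothelial genes were lower in the same libraries, with sums of 105 to 239 CPM against at least 1748, and their part in the laminin results was not tested.

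Of 14 other integrin chains tested, 4 were lower and 1 higher (2 and 0 with the covariate). Itga8 fell by 3.27 (SE 0.39, edgeR adjusted p = 1.4e-06) and Itga1, a collagen receptor chain, by 2.68 (SE 0.40, adjusted p = 2.39e-05). Itga4, a chain of leukocyte integrins, rose by 2.15 (SE 0.47, edgeR adjusted p = 0.00146). It was at 647, 796 and 710 CPM in SCC 1, SCC 3 and SCC 4, the libraries of high receptor signal, at 172 and 117 in SCC 2 and SCC 5, and at 72.1 to 142 in normal lung. With SCC 2 and SCC 5 alone it was at 0.39 (edgeR adjusted p = 0.591), and with the covariate at -0.59 (adjusted p = 0.758). After background subtraction Itga4 kept its call (2.78, edgeR adjusted p = 0.00214), and the part of the receptor signal in its rise was not tested. Of 6 other laminin receptors 3 were lower and 1 higher (0 and 2 with the covariate). Sdc1, a cell surface proteoglycan, rose by 1.91 (SE 0.44, edgeR adjusted p = 0.00254). Bcam and Dag1 fell by 1.56 and 1.54 (edgeR adjusted p = 0.00603 and 0.0061), and neither passed when SCC 2 and SCC 5 stood for the group (adjusted p = 0.124 and 0.0783).

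Of 5 other plakins and keratin linkers 4 were higher and 1 lower, and 4 and 0 with the covariate. Evpl, a cornified envelope plakin, rose by 3.45 (SE 0.43, edgeR adjusted p = 2.89e-06) and Eppk1, or epiplakin, by 1.87 (SE 0.39, adjusted p = 0.00099). Macf1, a plakin that links actin and microtubules, fell by 2.52 (SE 0.46, edgeR adjusted p = 0.000257), from 2094 to 4023 CPM in normal lung to 305 to 860 in SCC, and was not called with the covariate (-1.22, adjusted p = 0.281). Dst and Plec, the hemidesmosomal plakins, were not called in either direction.

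Of 11 genes of anchoring fibrils, nidogens and the dermal-epidermal junction, 3 were higher and 3 lower (2 and 0 with the covariate). Lad1, or ladinin, an anchoring filament protein, rose by 5.54 (SE 0.55, edgeR adjusted p = 1.07e-07), from at most 6.94 CPM in normal lung to at least 66.6 in SCC. Col7a1, the collagen of anchoring fibrils, rose by 2.84 (SE 0.69, edgeR adjusted p = 0.00355) and lost its call after background subtraction (2.72, adjusted p = 0.149). Nid1, a basement membrane linker, fell by 1.5 (SE 0.38, edgeR adjusted p = 0.00519), and did not pass when SCC 2 and SCC 5 stood for the group (-1.09, adjusted p = 0.075).

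Of 11 other tetraspanins 1 was higher and 1 lower. Tspan1 rose by 1.87 (SE 0.43, edgeR adjusted p = 0.00223) and Tspan13 fell by 3.53 (SE 0.44, adjusted p = 2.41e-06), while Cd82 was at -1.04 (adjusted p = 0.0799). Tspan1 was not called with the covariate (1.85, edgeR adjusted p = 0.134). Cd82 was called lower without a filter (-1.39, edgeR adjusted p = 0.0233), by the DESeq2 Wald test (-1.01, adjusted p = 0.0406) and by limma-voom (-1.07, adjusted p = 0.0189). Of 8 proteases tested that can cleave laminin-332 or collagen XVII, 1 was higher and 0 lower. It was Mmp14, a membrane-bound metalloproteinase, at 1.44 (SE 0.43, edgeR adjusted p = 0.0178), and it lost the call without SCC 5 (0.89, adjusted p = 0.104), without normal 1, normal 2 or normal 5 (adjusted p = 0.0678 to 0.103) and with limma-voom (0.63, adjusted p = 0.133). Adam9 and Adam10, sheddases of collagen XVII, were at -0.78 and -0.63 (edgeR adjusted p = 0.21 and 0.252). Limma-voom called both lower (-1.61 and -1.33, adjusted p = 5.27e-05 and 0.000724), and Adam9 was also called lower without SCC 2 (-1.48, edgeR adjusted p = 0.00455). Of 11 focal adhesion adaptors 5 were lower and 0 higher, with a median of -0.85. With the covariate, a fit that called only 376 of 13203 genes lower, 0 were lower, with a median of -0.19. Fermt2, or kindlin-2, fell by 2.98 (SE 0.45, edgeR adjusted p = 3.29e-05), Tln1, or talin, by 1.82 (SE 0.37, adjusted p = 0.000833) and Vcl, or vinculin, by 1.36 (SE 0.39, adjusted p = 0.0132). Vcl did not pass when SCC 2 and SCC 5 stood for the group (-0.83, adjusted p = 0.156). Fibroblast, smooth muscle and endothelial genes, whose cells also carry these adaptors, had summed levels of 251 to 1091, 83.9 to 222 and 105 to 239 CPM in SCC, and their part in this result was not tested. In normal lung those sums were 798 to 1332, 536 to 1082 and 1748 to 2783 CPM.

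**Figure D4:**
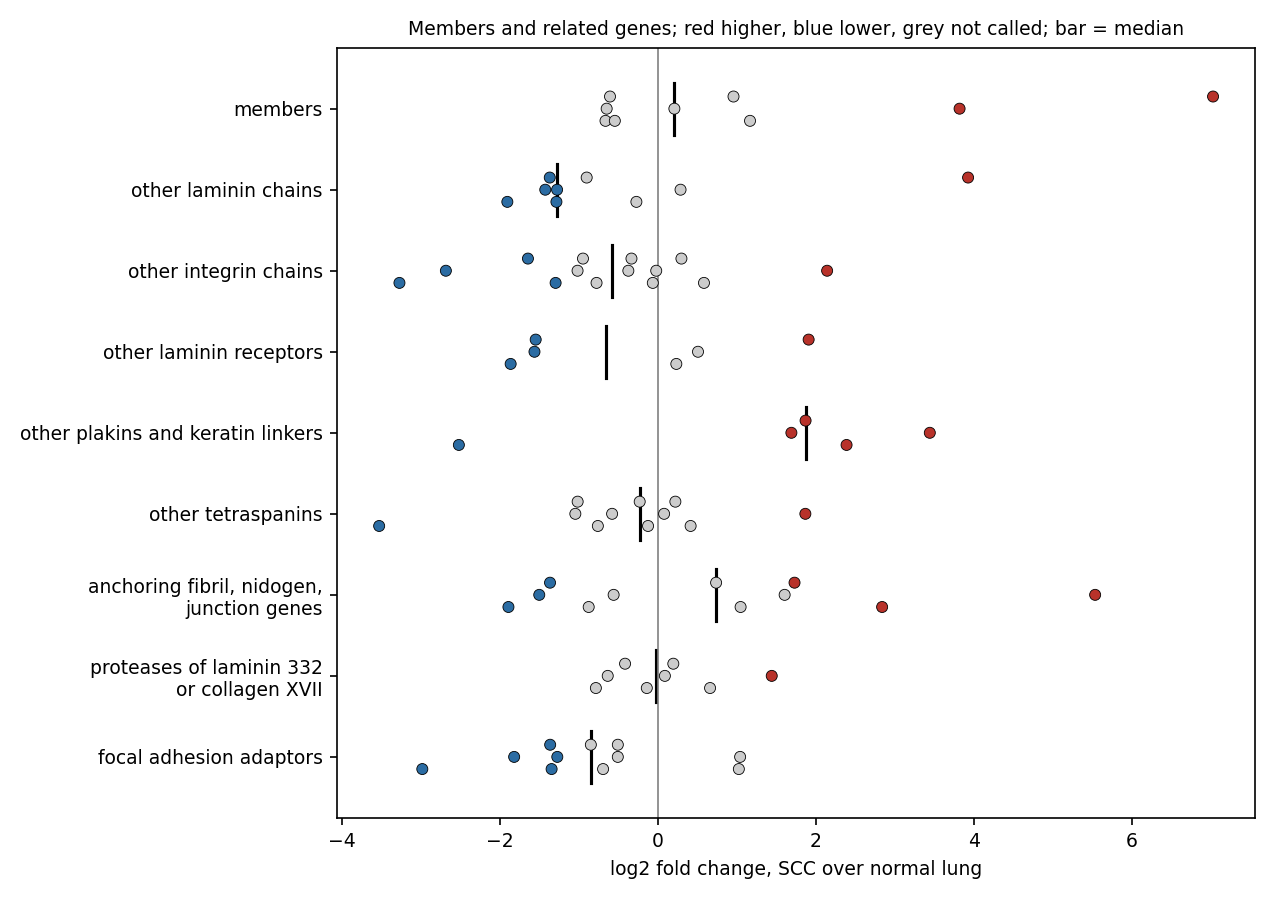
Log2 fold change of each tested gene, SCC over normal lung, by list, with red for called higher, blue for called lower, grey for not called and a black bar for the median of the list. Col17a1 at 7.03 and Itgb4 at 3.82 lie far from the other members, and 4 of the 5 other plakins and keratin linkers are red.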

How the data were processed

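The authors deposited 1 table of raw counts, with whole numbers for each gene symbol and library. Per the submitters' processing notes, the build named is mm10 and the tools are HTSeq 0.6.1, TopHat2 2.0.1, DESeq2 and cutadapt 1.9.1. The sources used here do not state the annotation, the strand option or how multi-mapping reads were handled, so counts of overlapping or antisense genes are uncertain.

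Libraries are numbered within a group in the order of their records. Counts were fitted with edgeR 4.0.16 in R 4.3.3 (filterByExpr by group, TMM, robust quasi-likelihood test, no covariate), on 13203 genes. A call is an adjusted p (Benjamini-Hochberg) under 0.05. The SE is the log2 fold change divided by the square root of F. CPM are counts scaled to a library total of 1e6, without TMM. Ratios use log2(CPM + 0.5) of each gene. Lengths and coordinates are from GENCODE M21 (GRCm38), which matched 24028 genes, 652 of them through an older symbol. The receptor signal divides the CPM on 1440 olfactory and vomeronasal receptor genes by their coding length in kb, after capping the highest 2% of these genes. The subtracted background is that signal times the exon length of each gene.

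Alternatives were DESeq2 size factors, no filter, the DESeq2 1.42.0 Wald test, limma 3.58.1 voom with quality weights, SCC 2 and SCC 5 alone, background subtraction, the receptor signal as covariate (for related genes, chosen after seeing the data), 0.1 or 2 CPM added in ratios, and each library left out. On simulated counts with 200 changed genes, in a comparison of 11723 genes, edgeR recovered 96.7% of 8-fold changes, 54.0% of 4-fold and 3.13% of 2-fold ones, and made 1 false call. All simulated libraries, SCC included, were drawn from the mean profile of normal lung with the same dispersion for every gene. The changed genes were not among those of low count. No receptor background and no library like SCC 5 were simulated, so these rates need not hold for the data. Members and lists were chosen with earlier results of these data known, and 1 listed gene is not reported here. Named genes are the 9 members, Col7a1, Itgb1, Lama5 and Krt5, the 3 genes of smallest p in each list, and the 3 genes nearest in profile to Lamb3, Itgb4 and Col17a1. Chi-square per degree of freedom was 2.93 between SCC 3 and SCC 4 and 11.5 to 62.1 between the other pairs within a group. SCC 3 and SCC 4 are thus closer than any other pair but differ beyond counting noise, and were not merged.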

Additional observations from a re-analysis of the deposited data

Results flagged for a closer look

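Among 18 groups of 5 libraries (the 9 members in each tissue), 5 held 1 library whose gap to the nearest other exceeded the 95% limit of Dixon's test. Chance would give about 1 in 20 groups if values were normally distributed and groups independent. The limit was applied to CPM without a log, and groups of a tissue share their libraries, so 1 in 20 is not a measure of excess here. SCC 5 was the high library in 3 of the 5 groups. Lama3 stood at 384 CPM there, against 86.6 to 130 in the other SCC libraries. Lamb3 stood at 266 CPM, against 11.3 to 43.8. Col17a1 stood at 841 CPM, against 91.6 to 203. In normal lung, Col17a1 was at 7.16 CPM in normal 1, against 0 to 1.54 in the others, and Plec at 629 CPM in normal 3, against 376 to 438. The basal cell genes Krt5 and Krt14 were 3.87 and 6.49 times the mean of the other SCC libraries in SCC 5, and their part in these values was not tested.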

How the results depend on the processing

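Itgb4 and Col17a1 were called higher under each alternative run, from 2.93 to 6.06 for Itgb4 and from 5.80 to 10.84 for Col17a1. Members called higher numbered 4 with SCC 2 and SCC 5 alone, 4 with the receptor signal as covariate, and 2 to 3 with a library left out. Members called lower numbered 4 with limma-voom and 0 to 1 with a library left out. Related genes called lower numbered 36 with limma-voom, 9 with SCC 2 and SCC 5 alone, 3 with the covariate and 19 to 27 with a library left out, and those called higher 10 to 14 with a library left out. Of all genes, 5470 were called higher and 2072 lower without a filter, 3257 and 2766 with limma-voom, 592 and 738 with SCC 2 and SCC 5 alone, and 469 and 376 with the covariate. The DESeq2 Wald test called 6378 higher and background subtraction 928. With a library left out, 1304 to 2207 were higher and 1009 to 1473 lower. Higher genes were 58.9% of calls, but 72.5% without a filter, 82.1% with the DESeq2 Wald test and 44.5% with SCC 2 and SCC 5 alone. The median of all genes shifted to 0.71 without a filter and 1.10 with the DESeq2 Wald test.

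With SCC 2 and SCC 5 alone, where the smallest exact p is 0.0476, no ratio passed. After adjustment a pass needed all 7 ratios to reach that p, so the lost calls say little. Itga6/Itgb4 was -2.82, Itga6/Itga3 2.08, Itgb4/Itgb1 4.67, Dst/Plec -0.87 and Col17a1/Itgb4 3.30. With a library left out, Itga6/Itgb4 ran from -2.98 to -2.34, Itga6/Itga3 from 1.33 to 1.79, Itgb4/Itgb1 from 4.67 to 5.38, Dst/Plec from -0.74 to -0.44, Col17a1/Itgb4 from 2.45 to 3.67, Lama3/Lamb3 from -1.41 to -0.76 and Lama3/Lama5 from -1.32 to -0.62.

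Some estimates changed sign, Itga4 alone among called genes. With SCC 2 and SCC 5 alone Lama3 was 0.027 and Itgb1 0.20. With the covariate Lama3 was 1.02, Itga3 0.27, Dst 0.32, Cd151 0.26, Itgb1 1.67, Itga4 -0.59 and Adam9 0.48. That fit also lost the calls of Lama4, Lama1, Lamc1, Bcam, Dag1, Macf1, Tspan1, Nid1, Fermt2, Tln1 and Vcl. With limma-voom Lamb3 was -0.24, Plec -0.26, Lama5 -0.45, Eif4ebp1 -0.14 and Minos1 -0.69. Without a filter Plec was -0.12 and Minos1 -0.060. With a library left out, Lamb3 ran from -0.47 to 1.21, Plec from -0.15 to 0.29, Psma4 from -0.030 to 1.11, Eif4ebp1 from -0.15 to 1.09 and Minos1 from -0.85 to 0.46, lowest without SCC 5 in each. Lama5 ran from -0.24 (without SCC 2) to 0.40. The cause was not tested. No paired analysis was possible because the labels give the groups no shared replicate numbers. Depth limits Col17a1 in normal lung, with 26 counts in all, and Lamb3 in SCC 1, with 12.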

Other observations

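Shares of chains within their families, per kb of exon, were computed after seeing the data and are given without a test. Lama3 was 25.5% to 41.6% of the 5 alpha chains in normal lung and 18.1% to 57.9% in SCC. Lamb3 was 11.0% to 28.4% of the 3 beta chains in normal lung, 17.5% to 34.3% in SCC 1 to SCC 4 and 65.9% in SCC 5. Itgb4 was 0.224% to 1.98% of the 8 integrin beta chains in normal lung and 15.9% to 23.8% in SCC. Itga6 was 29.0% to 47.7% of Itga3, Itga6 and Itga7 together in normal lung and 52.7% to 79.9% in SCC.

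The genes closest in profile to 3 members were found by the root mean square difference of log2 CPM, centred per gene, over 10 libraries. This is a description of these libraries, in which the groups themselves differ. The 3 nearest to Itgb4 were Trim29 (0.49), Anxa8 (0.51) and Perp (0.55), of which Perp encodes a desmosome-associated protein and Anxa8 an annexin. Perp was at 14.7 to 39.1 CPM in normal lung and 147 to 1258 in SCC. The 3 nearest to Col17a1 were Cwh43 (0.94), Arg1 (0.96) and Dsc3 (0.97), the last a desmosomal cadherin. Dsc3 had 1 count or none in each normal library and 27.3 to 460 CPM in SCC. The 3 nearest to Lamb3 were Psma4 (0.44), a proteasome subunit, Eif4ebp1 (0.48), a regulator of translation, and Minos1 (0.50), a mitochondrial membrane protein. None of these 3 passed the edgeR test (adjusted p = 0.322 to 0.827), although Psma4 and Eif4ebp1 did with the receptor signal as covariate (3.18 and 3.09, adjusted p = 0.0426 and 0.0307), and each was highest in SCC 5, at 91.5, 93.9 and 151 CPM.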
